A study of Mus musculus with 16 samples.

Results

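The vehicle arm of the experiment gave a time course of its own: mouse fallopian tubes that received only the solvent were held in medium for 20 min or for 2 h, and the arrays of the later time were compared with those of the earlier time. These were 8 of the 16 arrays of the series, 4 vehicle samples of 20 min and 4 vehicle samples of 2 h, chosen by their labels and not by any measured value. The tubes came from immature female C57BL/6N mice, 3.5 to 5 weeks old, that had received no hormone. Pieces of the trimmed and slit tubes were kept in a warm handling medium for oocytes and embryos with 0.01% ethanol. The other 8 arrays held tubes that received the same ethanol with 100 nmol/L progesterone for the same times. According to the methods, each sample pooled 6 tubes in 1 dish, but their wording does not settle how many mice these came from. The labels give the vehicle samples the codes 27n, 26n, 12n and 22ob for 20 min and 6d, 19n, 30o and 15o for 2 h, without saying what a code stands for. Values are given below in that order, and dish 15o, for example, means the vehicle sample with that code. A vehicle and a progesterone sample share each code, but no code spans both times, so time could not be told apart from the pool of animals or from anything else that differed between the dishes of 20 min and of 2 h. No array of tissue frozen without incubation was analysed here, so the 20 min samples already followed dissection, cutting and a first period in medium.

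The fallopian tube, or oviduct, is a muscular duct lined by ciliated cells, which move the oocyte and embryo, and by secretory cells, which make the tubal fluid. Under the epithelium lie connective tissue and smooth muscle. Cells that are cut, washed and placed in a new medium commonly switch on immediate early genes, whose transcripts appear within minutes and decay quickly and which encode transcription factors such as Fos and Egr1. Delayed early genes follow, among them growth factors, cytokines, feedback inhibitors and proteins of the cytoskeleton and of tight junctions. The comparison asks which functions and gene families rose or fell between the early and the late time in tubes that met no progesterone.

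RNA was measured on Illumina MouseRef-8 v2 BeadChips, on which each probe reports the brightness of labelled cRNA bound to one kind of bead. The median raw brightness of a vehicle array lay between 116.5 and 147.1 at 20 min and between 116.6 and 129.3 at 2 h, and between 13261 and 13731 probes of an array had a detection p-value under 0.05. Values below are log2 signal after quantile normalization over the 16 arrays, and a difference of 1 is a doubling. The filter kept 16848 of 25697 probes, for 12426 genes. A gene was read from its kept probe with the highest mean, and was called changed where limma's moderated test gave a p-value that stayed at or under 0.05 after Benjamini-Hochberg adjustment over all kept probes. Log2 signals of 2 arrays of 20 min correlated at 0.985 to 0.992 across probes, those of 2 arrays of 2 h at 0.972 to 0.992, and those of an array of each time at 0.961 to 0.98.

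Between 20 min and 2 h 809 genes rose and 735 fell, or 6.51% and 5.92% of the genes tested. Counted over probes, 1013 rose (6.01%) and 898 fell (5.33%). The rises were larger: 147 genes rose at least 2-fold and 25 fell as much, with a largest rise of 4.14 and a largest fall of -1.56 on the log2 scale. Of the 1544 genes called, 1468 had 4 arrays of 2 h that all lay on one side of the 4 arrays of 20 min. Over all 12426 genes, called or not, the times did not overlap in 1057 that were higher and 1120 that were lower. The balance of the 2 directions depended on the scaling. Rises were 53% of the probes called after quantile normalization, 26.2% (550 higher, 1548 lower) when each array was only centred on its median, and 15.8% (287 higher, 1534 lower) without normalization, where the median probe moved by -0.17. With the 2 h array of dish 15o left out, 995 probes rose and 909 fell, whereas the count of falls was 587, 556 and 532 without the 20 min array of dish 27n, 26n or 22ob and 446 and 489 without the 2 h array of dish 19n or 30o. The p-values measure the spread between these pooled dishes.

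**Figure D1:**
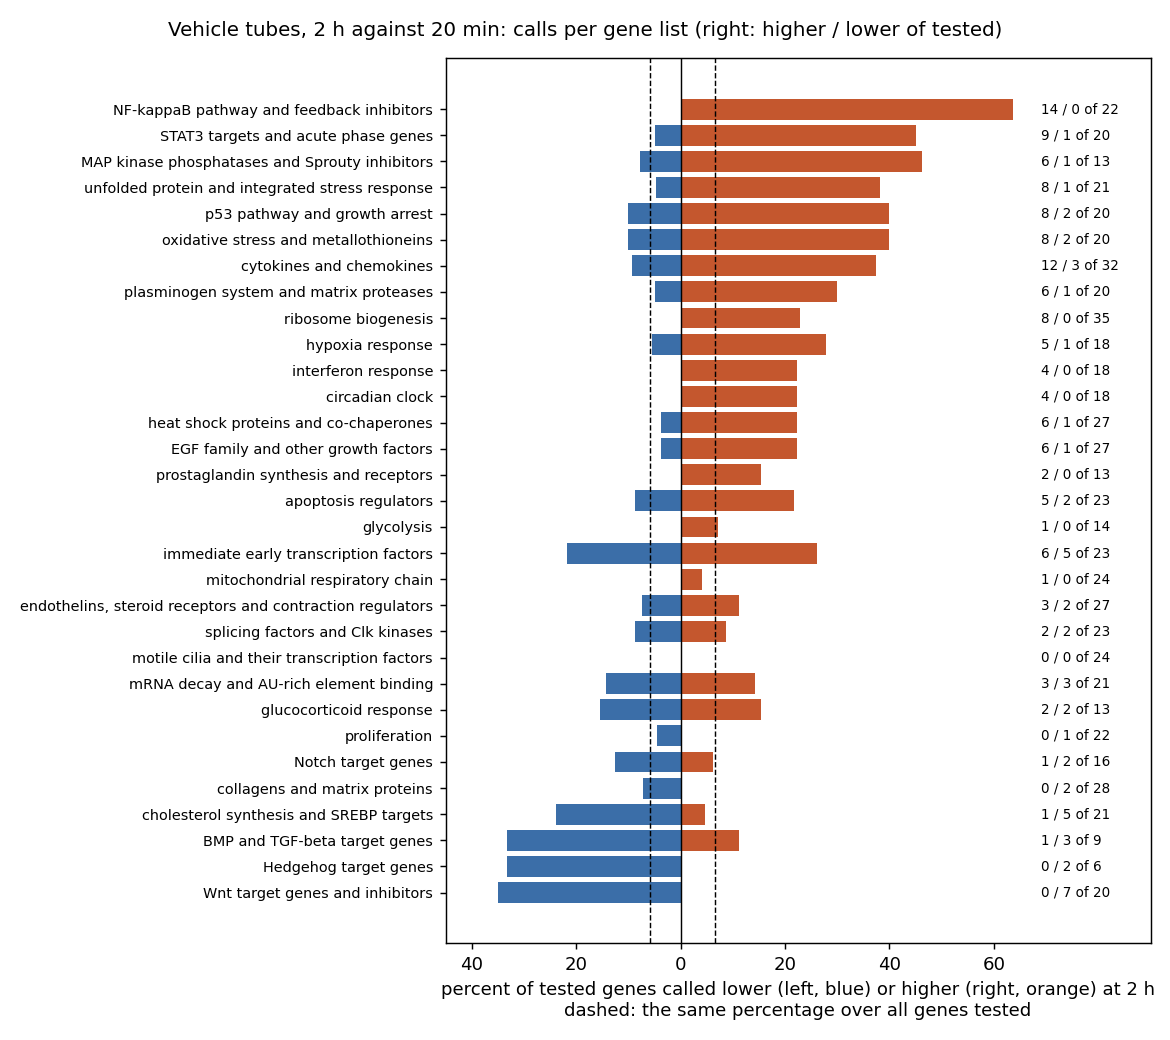
Percentage of tested genes in each of 31 lists that were called higher (right) or lower (left) at 2 h in vehicle tubes, with dashed lines at 6.51% and 5.92%, the values over all genes. The NF-kappaB list reaches furthest to the right (14 of 22 genes) and the Wnt list furthest to the left (7 of 20).

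The tissue was checked with marker genes. The 9 markers of ciliated cells were detected on all 8 arrays and limma called 0 of them (0 at an unadjusted p under 0.05), among them Foxj1, the transcription factor of ciliated cells, at 7.88 to 8.20 at 20 min and 8.02 to 8.28 at 2 h. All 9 had differences above 0, with a median of 0.264 (-0.005 without normalization), and the mean of the list overlapped between the times. The 7 markers of secretory epithelium were detected on all 8 arrays too. Of these 2, Krt8 and Krt18, were called higher and 0 lower, the median difference was 0.42, and their mean rose by 0.31 with no overlap between the times, while Ovgp1, the oviduct glycoprotein, stood at 14.74 to 15.003 at 20 min and 14.68 to 14.92 at 2 h. The median difference of the 7 was 0.23 after median centring and 0.118 without normalization, where 0 were called. Dishes differed in their connective tissue and muscle. The mean of the 10 smooth muscle markers, given relative to its mean over the 8 arrays, was 0.50, 0.56, -0.28 and 0.24 at 20 min and 0.58, 0.00, -0.15 and -1.44 at 2 h. That of the 7 fibroblast markers was 0.55, 0.92, -0.23 and 0.32 at 20 min and 0.33, -0.25, -0.24 and -1.40 at 2 h. Dish 15o thus stood far below every other dish on both lists, while the remaining values of both times overlapped. By limma, 0 of the 10 muscle genes (1 at an unadjusted p under 0.05) and 1 of the 7 fibroblast genes, decorin (Dcn), was called. The tested markers of fat, ovary, skeletal muscle, and T and B cells lay near background on average. Their means were 6.87 to 7.41 on the vehicle arrays, against 10.20 to 10.97 for the ciliated list. Still, 2 of 5 T and B cell markers and 1 of 6 ovary markers were detected on all 8 arrays. So were 3 of 4 blood markers, whose mean was 8.50 to 8.84 at 20 min. At 2 h it was 8.03 to 9.15, lowest in dish 15o and highest in dish 6d. In tissue samples such as these, fewer cells of a type and less RNA per cell cannot be told apart.

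**Figure D2:**
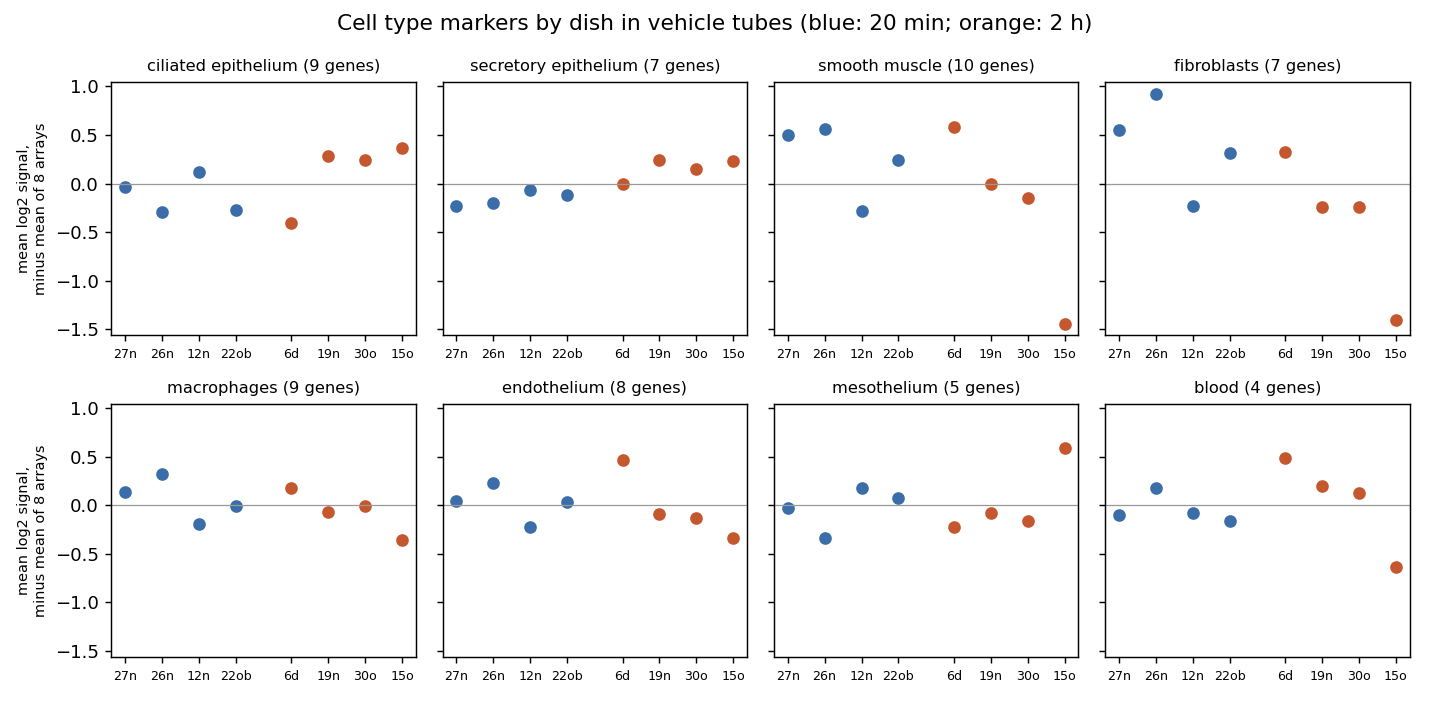
Mean log2 signal of 8 marker lists in each vehicle dish, relative to the mean of the 8 arrays, with 4 dishes of 20 min in blue and 4 of 2 h in orange. Dish 15o lies at -1.44 for smooth muscle and -1.40 for fibroblasts, below all other dishes, and the secretory epithelium list is the panel where the times do not overlap.

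The largest rise was that of Cldn4, a claudin of tight junctions, which stood at 8.57, 8.64, 9.03 and 8.62 at 20 min and at 12.75, 12.997, 12.88 and 12.81 at 2 h. The 2 groups lay far apart, and the difference was 4.14 (SE 0.11, 17.7-fold, adjusted p = 6.9e-08). Tnfrsf12a, the receptor of the cytokine TWEAK, read 8.003, 8.12, 7.95 and 7.94 and then 12.45, 12.12, 12.002 and 11.11, a rise of 3.92 (SE 0.23, 15.1-fold, adjusted p = 9.39e-06). Its lowest 2 h array was dish 15o. Itpkc, a kinase of inositol trisphosphate, read 8.18 to 8.30 on the arrays of 20 min and 10.997 to 11.28 on those of 2 h, a 7.41-fold rise. Sprr2g, a small proline-rich protein of epithelia, rose 7.11-fold, and Emp1, an epithelial membrane protein, 6.2-fold from an already high mean of 11.02. The other genes of the 20 largest rises lay between 4.84-fold (Gbp2, an interferon-induced GTPase) and 6.28-fold (LOC100047934, a hypothetical protein). They held a pair of probes of one gene, since NDRL (6.09-fold) is a former name of Ndrg1 (5.84-fold), a gene known to respond to low oxygen and stress. Fam110c rose 5.93-fold. The rest were Ccrn4l, a circadian gene also called nocturnin (6.06-fold), Chac1, a glutathione-degrading enzyme of the stress response (5.93-fold), Sphk1, the kinase that makes sphingosine 1-phosphate (5.87-fold), Slc6a2, the noradrenaline transporter (5.67-fold), Krt17, a keratin of injured epithelia (5.6-fold), Mmp13, a collagenase (5.42-fold), Areg, an EGF receptor ligand (5.35-fold), and Srxn1, which repairs oxidised peroxiredoxins (5.17-fold), with Sfn, a 14-3-3 protein of epithelia (5.06-fold), and Fas, the death receptor (4.94-fold). For each of these 20 symbols every array of 2 h lay above every array of 20 min, which the rule for naming them required.

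**Figure D3:**
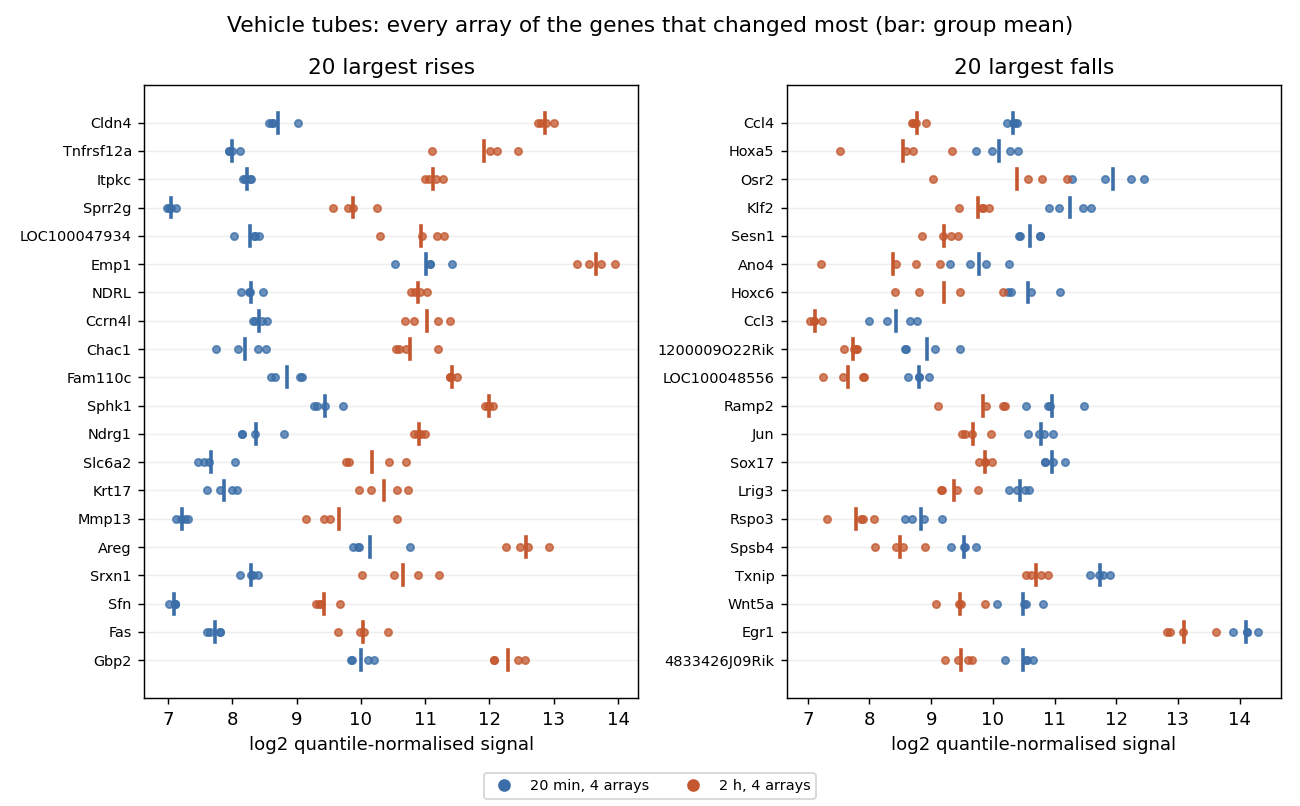
Log2 normalised signal on each vehicle array for the 20 largest rises and the 20 largest falls without overlap between the times, by gene symbol. Blue points are the 4 arrays of 20 min, orange points the 4 of 2 h, and bars the group means. Cldn4 moves from a mean of 8.72 to 12.86, while among the falls the spread of Hoxa5, Osr2, Ano4 and Hoxc6 at 2 h is wide.

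Promoter windows of the leading genes are shown because the letters of some motifs, among them AP-1, stood in a larger share of risen than of all promoters. The windows run from 250 bases before to 50 bases after the start of a transcript, from RefSeq on GRCm38.p6, 5′ to 3′ on the gene's strand. Capitals mark matches, on either strand, to 8 motifs: CRE (TGACGTCA), AP-1 (TGANTCA), the CArG box, the NF-kappaB motif, STAT (TTCNNNGAA), the heat shock element, the E-box (CACGTG) and TATAAA. Cldn4 (chr5:134946885-134947184, minus strand) has the AP-1 letters TGACTCA at 240 to 234 and again at 158 to 152 bases before its start. Emp1 (chr6:135362681-135362980, plus strand, the first of its 2 windows by position) has AP-1 letters at 145 to 139 and 25 to 19 bases and STAT letters at 120 to 112 and 22 to 14 bases before its start, and the latter overlap. The windows of Tnfrsf12a (chr17:23677400-23677699, minus strand) and Itpkc (chr7:27228568-27228867, minus strand) and, among the falls, of Hoxa5 (chr6:52204538-52204837, minus strand) and Klf2 (chr8:72318812-72319111, plus strand) hold none of the 8 motifs.
Cldn4: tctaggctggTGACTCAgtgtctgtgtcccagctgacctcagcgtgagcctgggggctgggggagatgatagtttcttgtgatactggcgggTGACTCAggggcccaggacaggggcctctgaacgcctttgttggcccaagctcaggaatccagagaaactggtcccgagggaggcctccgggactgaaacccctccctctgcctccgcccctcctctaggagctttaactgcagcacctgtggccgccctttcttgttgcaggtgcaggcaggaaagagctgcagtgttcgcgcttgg
Emp1: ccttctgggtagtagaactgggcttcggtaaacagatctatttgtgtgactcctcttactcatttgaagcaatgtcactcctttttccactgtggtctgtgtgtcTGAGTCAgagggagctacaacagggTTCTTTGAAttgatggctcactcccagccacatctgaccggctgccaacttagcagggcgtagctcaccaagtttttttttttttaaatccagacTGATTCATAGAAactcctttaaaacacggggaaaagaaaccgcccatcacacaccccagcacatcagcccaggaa
Tnfrsf12a: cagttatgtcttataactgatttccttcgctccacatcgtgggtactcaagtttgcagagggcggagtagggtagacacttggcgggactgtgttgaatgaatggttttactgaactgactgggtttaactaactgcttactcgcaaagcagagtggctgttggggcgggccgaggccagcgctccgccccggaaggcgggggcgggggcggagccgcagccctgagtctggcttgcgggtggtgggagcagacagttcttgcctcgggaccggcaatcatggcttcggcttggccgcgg
Itpkc: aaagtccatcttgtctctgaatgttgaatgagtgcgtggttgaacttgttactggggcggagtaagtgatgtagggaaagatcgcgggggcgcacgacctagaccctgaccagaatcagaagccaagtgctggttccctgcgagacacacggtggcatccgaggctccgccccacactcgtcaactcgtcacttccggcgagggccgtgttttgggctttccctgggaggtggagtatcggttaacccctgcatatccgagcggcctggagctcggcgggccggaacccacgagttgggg
Hoxa5: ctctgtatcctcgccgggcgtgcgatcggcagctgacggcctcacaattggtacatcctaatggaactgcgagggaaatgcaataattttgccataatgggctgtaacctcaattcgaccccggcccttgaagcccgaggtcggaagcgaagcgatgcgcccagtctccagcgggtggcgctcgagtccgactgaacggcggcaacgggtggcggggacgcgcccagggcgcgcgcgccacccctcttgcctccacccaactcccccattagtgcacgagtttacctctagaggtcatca
Klf2: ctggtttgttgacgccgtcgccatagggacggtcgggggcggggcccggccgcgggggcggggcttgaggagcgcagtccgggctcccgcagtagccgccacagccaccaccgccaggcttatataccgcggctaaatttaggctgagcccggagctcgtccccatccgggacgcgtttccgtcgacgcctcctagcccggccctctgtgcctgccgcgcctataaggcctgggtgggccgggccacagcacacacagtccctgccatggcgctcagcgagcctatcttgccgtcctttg

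Of the 12426 genes tested, 7865 had a window by symbol, and 5.86% of these held the AP-1 letters. Among genes that rose the share was 9.42% (50 of 531), among those that rose at least 2-fold 21.3% (20 of 94), and among those that fell 4.42% (20 of 452). CRE letters stood in 4.33% of risen, 1.99% of fallen and 2.72% of all windows, and NF-kappaB letters in 13.4%, 9.51% and 10.6%. The CArG box stood in 2.26% of risen, 1.33% of fallen and 1.44% of all windows, and in 1.06% of those of genes that rose at least 2-fold. The E-box stood in 9.79% of risen, 11.9% of fallen and 9.5% of all windows. Heat shock elements were found in 4.71% of risen and 5.96% of all windows, STAT letters in 6.78% and 6.85%, and TATAAA in 9.23% and 8.51%. These shares are descriptions without a test, and a match of letters is not a bound site.

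Immediate early transcription factors were split between falls and rises. Of 23 tested, 6 rose (26.1%) and 5 fell (21.7%), beside 6.51% and 5.92% of all genes. The median was 0.00 against -0.01 over all genes. After median centring 4 rose and 6 fell, and without normalization 3 and 6. Fos, a subunit of AP-1, read 13.62, 13.65, 13.60 and 13.58 at 20 min, near the top of the scale, and 12.68, 12.69, 12.59 and 13.06 at 2 h. The 20 min arrays lay close together and above all 2 h arrays, and Fos fell by 0.86 (SE 0.10, 1.81-fold, adjusted p = 0.000531). Egr1, a zinc finger factor induced by growth signals, read 14.13, 14.30, 13.90 and 14.12 and then 13.62, 13.08, 12.83 and 12.87. It fell by 1.01 (SE 0.17, 2.01-fold, adjusted p = 0.00436). Jun, the partner of Fos, fell 2.16-fold and Junb 1.71-fold. Klf2, a factor best known from endothelium, fell 2.82-fold, with 10.91 to 11.59 at 20 min and 9.45 to 9.93 at 2 h. Atf3 (10.995 to 11.16, then 10.79 to 11.27) was not called. Fosb read 11.12 to 11.83 and then 10.74 to 11.39 (adjusted p = 0.065). Each of these factors was still detected on all 4 arrays of 2 h.

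The 6 that rose were Crem, Maff, Axud1, Bhlhb2, Ier3 and Klf6. Crem, a regulator of cAMP-responsive genes, read 7.56, 7.63, 7.70 and 7.65 at 20 min and 10.14, 9.86, 10.09 and 9.49 at 2 h, a 4.79-fold rise (SE 0.13 on the log2 scale, adjusted p = 7.74e-06). Maff, a small Maf protein, rose 3.03-fold, from 7.06 to 7.22 at 20 min up to 8.52 to 8.92 at 2 h. Axud1 (now Csrnp1) rose 2.21-fold, and Bhlhb2 (now Bhlhe40), Ier3 and Klf6 by 0.55, 0.48 and 0.44 on the log2 scale. The call of Klf6 was lost in 14 of 20 alternatives, over which its rise lay between 0.287 and 0.533. Of 21 genes listed for mRNA decay and AU-rich element binding 3 rose and 3 fell (14.3% each, beside 6.51% and 5.92% of all genes). The counts were 3 and 6 after median centring, and 1 and 3 without normalization. Zfp36, which binds AU-rich elements, fell by 0.80 and Tob1 fell by 0.64, while Ccrn4l and Zc3h12a, an endonuclease for inflammatory transcripts, rose by 2.60 and 0.56.

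**Figure D4:**
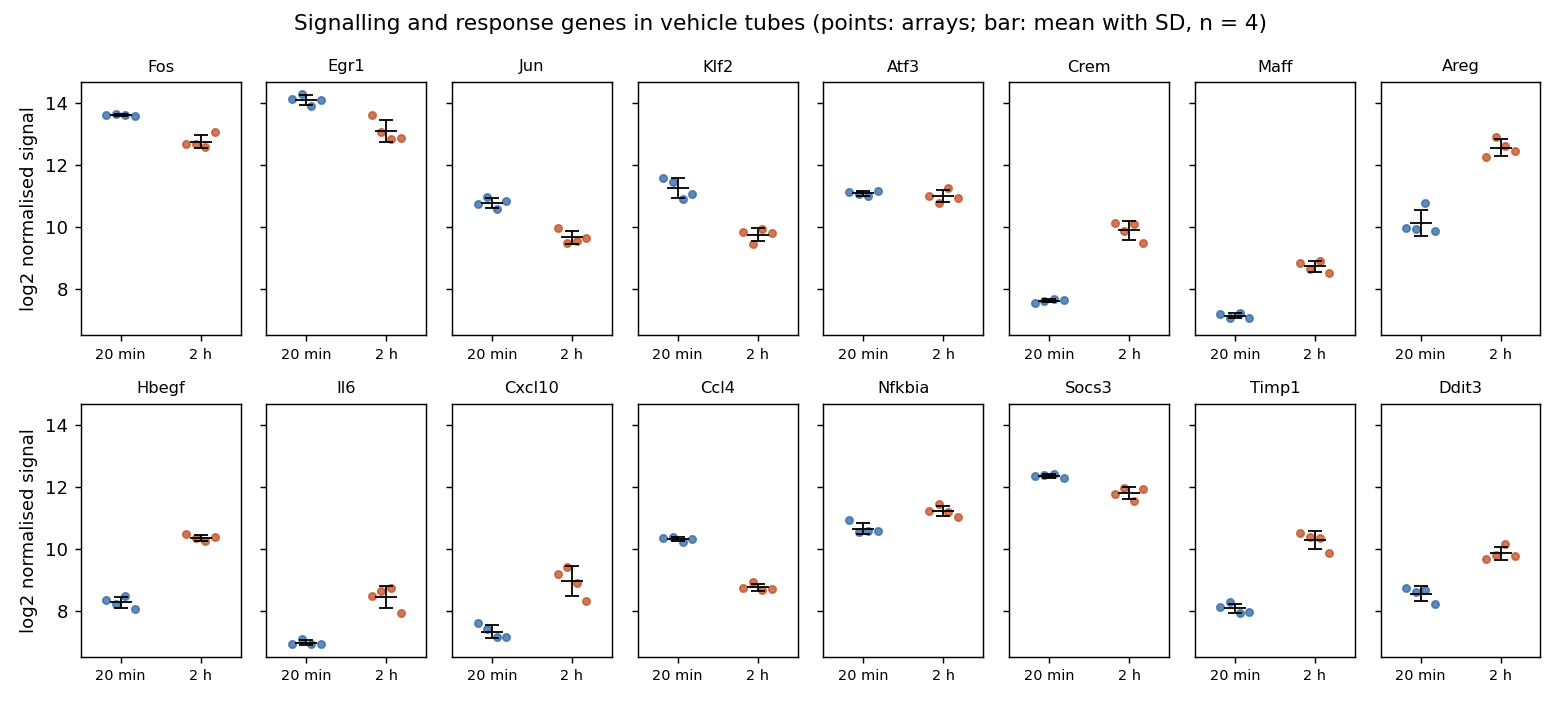
Log2 normalised signal of 16 signalling and response genes on the 4 vehicle arrays of 20 min (blue) and the 4 of 2 h (orange), with the mean and SD. Fos, Egr1, Jun, Klf2, Ccl4 and Socs3 are lower at 2 h, Atf3 overlaps between the times, and the others are higher at 2 h.

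Among growth signals, 3 ligands of the EGF receptor and some inhibitors of the MAP kinase pathway rose. Hbegf, a ligand of the EGF receptor, read 8.34, 8.22, 8.48 and 8.06 and then 10.47, 10.35, 10.25 and 10.37, a rise of 2.08 (SE 0.09, 4.24-fold, adjusted p = 2.19e-06). Areg read 9.96, 9.96, 10.77 and 9.88 and then 12.25, 12.92, 12.61 and 12.47. Its highest 20 min array, dish 12n, was still below all arrays of 2 h. Btc, another ligand of that receptor, rose by 0.36. In total 6 of 27 growth factor genes rose (22.2%) and 1, Pdgfc, fell (3.7%), beside 6.51% and 5.92% of all genes. After median centring 6 rose and 4 fell, and without normalization 4 and 5. Fst, an inhibitor of activin, rose by 1.67 and Gdf15, a stress cytokine, by 1.09. Inhba, an activin subunit, was not detected on any 20 min array and was at least 1.37-fold higher at 2 h. Such bounds set the 2 h mean against the dimmest detected signal of each 20 min array. Of 13 MAP kinase phosphatases and Sprouty proteins, which damp this pathway, 6 rose and 1 fell (median 0.375), and 3 rose and 1 fell without normalization. Dusp6, which acts on ERK, rose by 1.05, Dusp16 by 1.01 and Dusp14 by 0.95. Dusp1, an immediate early phosphatase, fell by 0.46, with 13.36 to 13.75 at 20 min and 13.06 to 13.19 at 2 h.

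NF-kappaB, a factor of inflammation and injury, had the largest share of risen genes among the function lists after quantile normalization, though not without normalization or with the fibroblast score as a covariate. Of 22 genes tested, 14 rose and 0 fell, against 6.51% and 5.92% of all genes, and the median was 0.44. They were its subunits Rela (0.94), Nfkb1 (1.02), Relb (0.59) and Nfkb2 (0.26), its inhibitors Nfkbia (0.56), Nfkbie and Nfkbib, the feedback inhibitors Tnfaip3 (0.74), Tnip1 and Zc3h12a, the cofactor Bcl3 (0.88, detected on 1 of 4 arrays at 20 min), and the targets Icam1, Tnfaip2 and Ccrl2. Icam1, an adhesion molecule for leukocytes, read 7.81, 8.11, 7.98 and 8.10 and then 10.26, 9.64, 9.51 and 9.28, a 3.2-fold rise (adjusted p = 0.000416). Tnip1 stood at -0.056 without normalization, where 6 of the 22 rose and 1 fell, and 9 of the 22 rose and 1 fell after median centring. Without dish 15o 13 rose.

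Of 32 cytokines and chemokines 12 rose (37.5%) and 3 fell (9.38%), beside 6.51% and 5.92% of all genes, with a median of 0.20. After median centring 10 rose and 4 fell, without normalization 7 rose and 4 fell with a median of 0.025, and with the fibroblast score as a covariate 16 rose and 2 fell. Il6, a cytokine of the acute phase, was detected on 1 of the 4 arrays of 20 min and on 4 of 4 at 2 h. It read 6.92, 7.10, 6.92 and 6.95 and then 8.49, 8.65, 8.74 and 7.92, so dish 15o was the lowest of the later arrays and still above the earlier ones (rise 1.47, SE 0.16, 2.78-fold, adjusted p = 0.000376). The call was lost in 0 of 20 alternatives, over which the rise of Il6 lay between 1.22 and 3.07. Il11, of the same family, was undetected at 20 min and at least 1.73-fold higher at 2 h. Cxcl10, an interferon-inducible chemokine, rose 3.11-fold, and Cxcl1, Cxcl2, Cxcl16, Cxcl17, Ccl2, Ccl7 and Cx3cl1, ligands that attract leukocytes, rose by 0.46 (Ccl7, whose arrays overlapped) to 0.99 (Cxcl1) on the log2 scale. The neutrophil growth factor Csf3 and the antagonist Il1rn rose by 0.69 and 0.70. The macrophage chemokine Ccl4 went the opposite way, at 10.36, 10.40, 10.23 and 10.32 and then 8.75, 8.92, 8.69 and 8.70. It fell by 1.56 (SE 0.07, 2.95-fold, adjusted p = 2.37e-06), and its relative Ccl3 fell 2.49-fold. The 9 macrophage markers gave 1 call, Cd68 at 0.61, although 8 of the 9 were below 0 and without normalization 0 rose and 3 fell, and their mean lay at -0.19 to 0.32 at 20 min and -0.36 to 0.17 at 2 h. Cxcl12, a chemokine of stromal cells, fell by 1.10 with overlapping arrays. The inflammatory cytokines Tnf and Il1b were not called. Tnf was detected on 1 of 4 and 1 of 4 arrays, and Il1b read 8.55 to 8.84 and then 8.25 to 9.77.

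Targets of the cytokine-activated factor STAT3 and acute phase genes held 9 rises and 1 fall among 20 (median 0.18). These shares were 45% and 5%, beside 6.51% and 5.92% of all genes. Timp1, an inhibitor of matrix proteases, read 8.12, 8.28, 7.95 and 7.97 and then 10.53, 10.38, 10.35 and 9.86, a 4.59-fold rise (adjusted p = 1.53e-05). Serpina3n, an acute phase protease inhibitor, rose 3.34-fold (SE 0.07 on the log2 scale), Osmr, the oncostatin M receptor, 2.93-fold, and Lcn2, which binds iron carriers, 2.19-fold. Lcn2 read 10.98, 10.37, 11.09 and 10.69 and then 11.16, 11.79, 11.82 and 12.88, highest in dish 15o. Its call was lost in 13 of 20 alternatives, over which the rise lay between 0.475 and 1.38. Stat3 itself rose by 0.88 and Cebpb, a factor of the acute phase, by 0.82. Socs3, the feedback inhibitor of this pathway, fell by 0.55. After median centring 5 of the 20 rose. Of 18 interferon response genes 4 rose and 0 fell, Gbp2, Cxcl10, Oasl1 (0.94) and Rsad2 (0.90), and the counts were also 4 and 0 after median centring and without normalization, while 6 rose without dish 15o and 7 with the fibroblast score as a covariate.

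Stress pathways held more rises than falls. Of 21 genes of the unfolded protein and integrated stress response, which slow translation and restore amino acids and folding capacity, 8 rose and 1 fell (median 0.36). These shares were 38.1% and 4.76%, beside 6.51% and 5.92% of all genes. The counts were also 8 and 1 after median centring and without dish 15o. Without normalization they were 6 and 1, with a median of 0.177. Chac1 read 8.09, 7.75, 8.53 and 8.40 and then 10.55, 11.20, 10.70 and 10.59. Trib3, a pseudokinase induced by this response, read 7.21, 7.06, 7.27 and 7.23 and then 9.12, 9.66, 9.32 and 9.19, a 4.38-fold rise (adjusted p = 4.18e-06). Ddit3, the factor CHOP, and Atf4, the factor at the centre of the integrated response, rose 2.46-fold and 2.1-fold. Asns, which makes asparagine, rose 1.94-fold, and the folding aids Hspa5 and Dnajb9 rose 2.01-fold and 1.64-fold. Vldlr, a lipoprotein receptor, fell by 0.71.

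Of 20 genes of oxidative stress 8 rose (40%) and 2 fell (10%), beside 6.51% and 5.92% of all genes, with a median of 0.21. The counts were 6 and 2 after median centring, and 5 and 2 without normalization, where the median was 0.003. Srxn1 read 8.32, 8.41, 8.13 and 8.30 and then 11.21, 10.89, 10.52 and 10.02. Hmox1, which degrades haem, rose 4.22-fold, with 10.21, 8.82, 9.26 and 8.97 at 2 h, where dish 6d was the highest. The metal-binding Mt2 and Mt1 rose by 0.94 and 0.59, and Txn1, thioredoxin, by 0.64. Its inhibitor Txnip fell by 1.04, with 11.58 to 11.90 at 20 min and 10.54 to 10.90 at 2 h. Of 18 hypoxia response genes 5 rose and 1 fell: Ndrg1, Egln3, an oxygen-sensing hydroxylase (2.87-fold), Vegfa, an angiogenic factor (1.92-fold), the glucose transporter Slc2a1 (1.77-fold) and the vasodilator peptide Adm (1.34-fold) rose, and the collagen hydroxylase P4ha2 fell by 0.34. After median centring 3 of the 18 rose and without normalization 2, and the call of Adm was lost in 7 of 20 alternatives, over which its difference lay between 0.17 and 0.832. Of 14 glycolytic enzymes 1, Ldha, rose by 0.31, a share of 7.14% near that over all genes, and after median centring 0 rose and 1 fell. Of 27 heat shock proteins and co-chaperones 6 rose and 1 fell, all by less than 1. After median centring 2 rose, and without normalization 1 rose and 1 fell. Hspb8 (0.91) and its partner Bag3 (0.54) led, while the inducible Hspa1a read 8.99 to 9.97 and then 8.95 to 9.42 (adjusted p = 0.336).

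Genes of growth arrest and cell death were among the rises. Cdkn1a, the p53-induced inhibitor of cyclin-dependent kinases, read 9.24, 9.80, 9.28 and 9.54 and then 11.27, 11.44, 11.24 and 11.16, a 3.52-fold rise (adjusted p = 2.53e-05). The p53 ligase Mdm2 rose 1.81-fold and the kinase Plk3 2.33-fold, and in total 8 of 20 such genes rose and 2 fell (5 and 3 after median centring, 3 and 4 without normalization). The falls were Tob1 and Sesn1, a stress-induced inhibitor of growth signalling, which fell by 1.40 (SE 0.14, 2.64-fold, adjusted p = 0.000209). Among 23 apoptosis regulators 5 rose, Fas, the inflammatory caspases Casp4 (3.92-fold) and Casp1 (1.69-fold), Bcl10 and the survival factor Mcl1, and the initiator Casp9 and the killer Bmf had differences of -0.46 and -0.40, both called lower. After median centring, and without normalization, 3 of the 23 rose and 3 fell. Of 22 proliferation genes 0 rose and 1 (4.55%) fell, the cyclin Ccnd2, at -1.02 with overlapping arrays. Over all genes 6.51% rose and 5.92% fell. After median centring, and without normalization, 0 of the 22 rose and 3 fell.

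Among gene families, keratins and S100 proteins held larger shares of risen genes than the 6.51% over all genes. Of 24 keratins 7 rose and 0 fell, led by Krt17, and they included the simple epithelial pair Krt18, at 11.25 to 11.67 at 20 min and 12.02 to 12.42 at 2 h, and Krt8 (0.58). The mean of the secretory epithelium markers, which include Krt8 and Krt18, was higher at 2 h by 0.31, and that of the ciliated markers by 0.24 with overlap. Means of the fibroblast and smooth muscle markers were lower by 0.78 and 0.51. The part of these marker shifts in the keratin rises was not tested here. Of 14 claudins Cldn4, Cldn7 (0.85) and Cldn12 (0.84) rose, and Cldn10 fell, at 13.12 to 13.40 and then 12.50 to 12.62. Of 10 S100 calcium-binding proteins 6 rose and 0 fell (60% of the family, median 0.41), among them S100a10, an annexin partner (2.93-fold). Of 19 integrins 4 rose, Itga5, the fibronectin receptor subunit, most at 1.52, and Itgb5 fell. In the plasminogen and protease list, 6 of 20 rose and 1 fell (6 and 3 after median centring, 5 and 4 without normalization), and the median was 0.06 with 10 genes above 0 and 10 below. Among the rises were Plaur, the urokinase receptor, at 2.20, the matrix protease Adamts4 at 1.87 and the hyaluronan synthase Has1 at 1.501.

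After quantile normalization the falls were fewer and smaller than the rises, with 5.92% of all genes lower and 6.51% higher. Of 20 Wnt targets and inhibitors 0 rose and 7 fell (median -0.16): the ligand Wnt5a at -1.01, the inhibitors Apcdd1 at -0.76, Notum at -0.49, Sfrp2 at -0.60 and Wif1 at -0.59, the receptor Fzd2 at -0.69 and the feedback gene Axin2 at -0.41. The Wnt amplifier Rspo3, among the 20 largest falls, fell 2.07-fold. The count of the list was also 7 of 20 without dish 15o, it was 9 after median centring, and it was 6 with the fibroblast score as a covariate, where Sfrp2 (-0.32, adjusted p = 0.0596) and Fzd2 (-0.53, adjusted p = 0.0705) were no longer called and Rspo3 stood at -0.68. Of 9 targets of BMP and TGF-beta, Id1, Id2 and Id4, inhibitors of helix-loop-helix factors, fell, with differences of -0.88, -0.46 and -0.78, and the repressor Tgif1 rose by 1.48. After median centring 1 of the 9 rose and 4 fell, and without normalization 1 and 5. Of 16 Notch genes Hey1 rose by 0.68 and Hes1 and Hes6 fell, with differences of -0.46 and -0.51. The share of rises, 6.25%, is near that over all genes, and that of falls was 12.5%. After median centring 0 rose and 4 fell, and without normalization 0 and 5. Of 6 Hedgehog genes 0 rose and 2 fell. Ihh, the ligand Indian hedgehog, read 8.36, 8.21, 8.10 and 8.17 and then 7.25, 7.03, 7.19 and 7.37, a 2-fold fall (adjusted p = 0.000112), and its signal transducer Smo fell by 0.54. Sox17, a factor of endoderm and endothelium, read 10.84, 10.84, 10.97 and 11.17 and then 9.88, 9.87, 9.78 and 9.98, a 2.11-fold fall (adjusted p = 6.4e-05). Of 21 cholesterol and SREBP genes 5 fell, with the fatty acid desaturase Scd2 at -0.82, and 1, the sterol oxidase Sc4mol, rose by 0.52. After median centring 0 of the 21 rose and 3 fell, and without normalization 0 and 5. Without dish 15o 1 rose and 7 fell.

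Genes typical of connective tissue spread widely between dishes. Hoxa5, a positional transcription factor, read 10.41, 10.27, 9.73 and 9.98 and then 9.33, 8.59, 8.71 and 7.52. It fell by 1.56 (SE 0.33, 2.95-fold, adjusted p = 0.0149). Osr2, a factor of mesenchyme, read 12.25, 12.44, 11.28 and 11.82 and then 11.20, 10.79, 10.57 and 9.02 (difference -1.55, adjusted p = 0.0479). In both, dish 15o was the lowest, as it was for Ano4 and Hoxc6. Of 25 Hox genes 4 fell, Hoxa5, Hoxc6, Hoxa7, whose arrays overlapped, and Hoxa9, and 0 rose. Without dish 15o the differences were -1.22 for Hoxa5 (adjusted p = 0.00658), -1.09 for Osr2 (adjusted p = 0.03) and -1.0 for Ano4 (adjusted p = 0.0246), and Hoxc6 and Hoxa7 were no longer called, at -1.08 and -0.83 with adjusted p = 0.0548 and 0.0599. With the fibroblast score as a covariate, an alternative chosen after seeing the data, the differences were -0.87 for Hoxa5 (adjusted p = 0.00308), -0.60 for Osr2 (adjusted p = 0.00838) and -0.58 for Ano4 (adjusted p = 0.0102), and Hoxc6 and Hoxa7 were at -0.68 and -0.47 (adjusted p = 0.0615 and 0.0562) and Hoxa9 at -0.26 (adjusted p = 0.0726), so that these 3 were not called. With the score of smooth muscle markers as the covariate all 5 genes were called, Hoxa5 at -1.13 (adjusted p = 3.69e-05), Osr2 at -0.96 (adjusted p = 9.32e-05), Ano4 at -0.89 (adjusted p = 0.00024), Hoxc6 at -0.96 (adjusted p = 0.0133) and Hoxa7 at -0.73 (adjusted p = 0.0107). Of 28 collagens and matrix proteins 0 rose and 2 fell, the small proteoglycans Ogn at -0.90 and Dcn at -0.74. That share of 7.14% is near the 5.92% of all genes called lower, and the median of the list was -0.58. Col1a1 read 11.67, 12.30, 9.80 and 10.97 and then 11.06, 10.47, 9.70 and 8.07 (adjusted p = 0.243), so the times overlapped. Without normalization 7 of the 28 fell and 0 rose. With the fibroblast score as a covariate 2 rose and 1 fell, and Dcn was no longer called, at -0.39 with adjusted p = 0.0581. The list's median was -0.235 without dish 15o and 0.133 with the fibroblast score as a covariate. The fibroblast and muscle scores given above move with these genes, some of which are themselves among the fibroblast markers, and their part in these falls was tested only through these covariates.

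Of 24 genes of motile cilia 0 were called by limma in either direction (1 had an unadjusted p under 0.05, against 3367 of the 12426 genes), with differences of -0.07 to 0.31 among the 24. Of 64 genes with symbols of cytosolic ribosomal proteins 2 rose, and 1 of these, Rps6ka3, is a kinase. Of 67 mitochondrial ribosomal proteins 6 fell and 0 rose, and of 24 respiratory chain genes 1 rose. Of 35 ribosome biogenesis genes 8 rose and 0 fell, led by Gnl3, the nucleolar protein nucleostemin (1.72-fold), but after median centring 1 rose and 1 fell. Of 18 clock genes 4 rose, the clock kinases Csnk1d (2.09-fold) and Csnk1e (1.61-fold), Bhlhb2 and Arntl, the factor BMAL1, while Per1 and Per2, the period genes, were not called at -0.06 and 0.00. Without normalization 1 clock gene rose and 2 fell. Of 191 Zfp zinc finger genes 7 rose (3.66%) and 19 fell (9.95%), beside 6.51% and 5.92% of all genes.

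Several genes that the study followed for progesterone moved with time in vehicle alone. These genes were picked from these same samples as higher in progesterone than in vehicle tubes at 2 h. That choice favours genes with low vehicle values at 2 h. In this list 1 gene stands on the array under 2 symbols, Arfl4 and Arl4d. Of the resulting 12 symbols 4 rose and 3 fell (3 and 5 after median centring, 2 and 4 without normalization). Their median difference over time was -0.043 in vehicle and 0.508 in progesterone tubes. Serpina3n, Slc25a33, a mitochondrial nucleotide carrier (2.44-fold), Cxcl1 and the vasoconstrictor peptide Edn1 rose. Arfl4, Amigo2, an adhesion molecule, and P4ha2 fell, with differences of -0.66, -0.63 and -0.34. Arl4d, the other symbol of the gene listed as Arfl4, was not called. Edn1 read 9.44, 9.36, 9.61 and 9.86 and then 9.92, 10, 9.94 and 10.09, a rise of 0.42 (SE 0.11, adjusted p = 0.0331). This call was lost in 11 of 20 alternatives, over which the rise lay between 0.14 and 0.52 and the adjusted p between 0.00721 and 0.676. Edn2, of the same family, read 7.499, 7.24, 7.54 and 7.39 and then 7.93, 7.94, 8.07 and 9.04 (rise 0.83, adjusted p = 0.0422), with dish 15o far above the other three. Without that dish the rise was 0.565 (adjusted p = 0.00456), and after median centring the rise of 0.71 was not called (adjusted p = 0.103). Ednra and Ednrb, the receptors of the endothelins, overlapped between the times, at 10.78, 11.39, 10.11 and 10.41 and then 10.79, 10.02, 9.90 and 8.51 for Ednra and at 8.88, 9.29, 7.97 and 8.46 and then 10.79, 9.52, 9.36 and 7.78 for Ednrb. Neither was called, but with the smooth muscle or the fibroblast score as a covariate Ednrb rose by 1.44 (adjusted p = 7.86e-05) or 1.90 (adjusted p = 6.22e-05), against 0.71 without (adjusted p = 0.469). Without dish 15o the difference of Ednrb was 1.24 and was not called (adjusted p = 0.0756). The progesterone receptor Pgr read 7.44 to 7.95 and 7.25 to 7.74 (adjusted p = 0.198).

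The same time contrast in the progesterone tubes rests on 8 other arrays, but it is not an independent repeat. According to the methods, each mouse gave a tube to progesterone and the other to the control, and the samples were paired. Dishes that share a code would then hold tubes of the same mice. Time is thus confounded with the pool of animals in both contrasts alike. In progesterone tubes 1212 probes rose (7.19%) and 1312 fell (7.79%). Of the 1013 probes that rose in vehicle tubes, 1010 had the same sign there and 814 were also called, and of the 898 that fell 890 and 593, where 46.1% of all 16848 probes were above 0 and 53.6% below 0. None (0) was called in the opposite direction. Over these probes the median rise was 0.555 in vehicle and 0.575 in progesterone tubes, and the median fall -0.42 and -0.40. In progesterone tubes Cldn4 rose by 3.82 and Tnfrsf12a by 4.17, and the differences of Fos, Egr1, Klf2 and Ccl4 were -1.06, -1.08, -1.59 and -1.40. A test of the difference between the 2 time contrasts, with the dish code as a random block in limma, called 0 of 16848 probes at an adjusted p of 0.05, with 734 at an unadjusted p under 0.05 and a smallest adjusted p of 0.159.

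**Figure D5:**
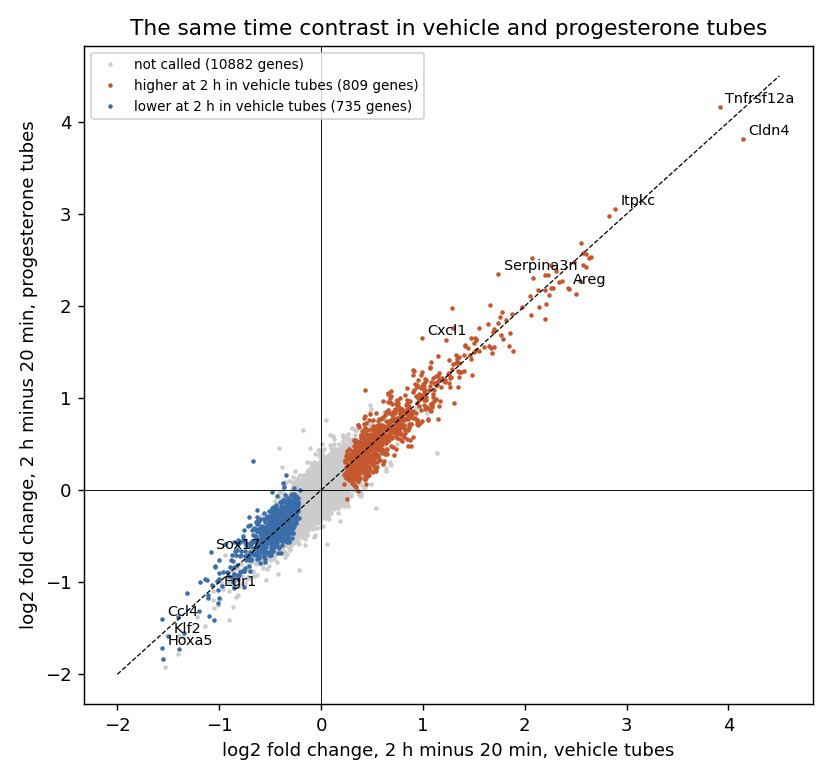
Log2 fold change from 20 min to 2 h of each gene in vehicle tubes (x axis) and in progesterone tubes (y axis), coloured by the call in vehicle tubes (809 higher, 735 lower), with a dashed line of equal change. Cldn4 and Tnfrsf12a lie at the upper end in both, and Ccl4, Klf2 and Hoxa5 at the lower end.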

How the data were processed

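Total RNA of each pooled sample was amplified, labelled and hybridised to 1 Illumina MouseRef-8 v2 array. The authors deposited the bead-summarised signal intensity of each probe, made in GenomeStudio, without normalization between arrays, and a detection p-value per probe and array, which is the share of negative controls at least as bright. From these, log2 signals were quantile-normalized over the 16 arrays, and probes were kept with a detection p-value under 0.5 on at least 13 arrays, a filter that follows the intensity part of the methods' filter. The methods also left out probes without annotation, whereas 887 probes without a definition were kept here, and leaving them out was an alternative. The time contrast was fitted on the 8 vehicle arrays with lmFit and eBayes (limma 3.58.1, R 4.3.3), without pairing, and p-values were adjusted by the Benjamini-Hochberg method over the 16848 probes. The script was tested on simulated data. The number of arrays limits the precision.

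Named were the 20 largest rises and the 20 largest falls without overlap between the times, up to 5 genes of each function list and 4 of each family, the genes followed by the study, and further list members that complete a pathway. The 46 lists and the 40 families, which were matched by symbol, were chosen with earlier results of these data known. Gene names are those of the array and can be old. Motifs were matched as letters in 1 window per gene. Alternatives covered scaling, background, filters, the threshold, marker scores as covariates, and each array left out.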

Additional observations from a re-analysis of the deposited data

Results flagged for a closer look

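In 28 of the 514 groups of 4 arrays tested, 1 array stood apart from the other three by Dixon's criterion, close to the 1 in 20 that chance gives; 26 of these were genes. Among the leading genes, Cldn4 and Areg were highest at 20 min in dish 12n, at 9.03 and 10.77, where the other arrays read 8.57 to 8.64 and 9.88 to 9.96. Edn2 and Fam110c were highest at 2 h in dish 15o, at 9.03 and 11.49, and Cxcl1 was lowest there, at 10.32. Il6, whose 20 min level was near background, was highest in dish 26n at 7.10.

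Dish 6d at 2 h was lowest for the mean of the ciliated markers, at 10.20 against 10.85 to 10.97. It was also lowest for Krt18 (12.02), Casp1 (10.06), Hes1 (9.05), Hist1h2an (7.95) and Hsp90aa1 (7.37). At 2 h, Sfrs7 was lowest at 9.26 and Il24 highest at 7.92 in dish 19n, and H2-Q8 was highest in dish 30o at 7.79.

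At 20 min, dish 12n was lowest for Foxo1 (8.26), Nol14 (7.99) and Tnfrsf1a (7.46). Dish 26n was lowest for Dnajc16 (9.20), Cox7a2 (8.30) and Serpinb1a (7.52) and highest for Clk3 (9.26). Dish 22ob was lowest for Dnajb2 (10.48) and Sfn (7.02) and highest for Hspb1 (12). Dish 27n was lowest for Serpina1b (12.14) and highest for Usp53 (7.42) and for the mean of the fat markers (7.11), which lay near background.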

How the results depend on the processing

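Genes were recomputed under 19 or 20 alternatives. In 14861 cases a named or listed gene kept its side of the threshold, in 849 it lost the call and in 275 it gained one. In 11 cases it changed sign with a call in the main or the alternative fit. Sign changes of genes called in neither fit are not among the 11. With the fibroblast score, for example, Col1a1 moved from -1.359 to 0.104 and Ednra from -0.868 to 0.095. Col1a1 is itself part of that score, so its shift is partly built in. Without normalization 287 probes rose, 1534 fell and 6654 changed in progesterone tubes, and with arrays centred on their median these were 550, 1548 and 4931. At an adjusted p of at most 0.20 they were 1953, 2429 and 5235, and 3193 vehicle calls were also called in progesterone tubes. With normexp background correction 496 probes changed at least 2-fold, against 208. With the fibroblast score as a covariate, which was chosen after seeing the data, 1659 probes changed in progesterone tubes, against 2524. The cause of these shifts was not tested.

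Leaving out 1 array at a time gave 718 to 1070 risen and 446 to 924 fallen probes, 188 to 228 with a 2-fold change, 1696 to 2874 in progesterone tubes and 973 to 1396 shared calls. Falls were 587, 556 and 532 without the 20 min arrays of dishes 27n, 26n and 22ob, and 446 and 489 without the 2 h arrays of 19n and 30o. Without normalization H2-Q7, Sars and Tnip1 changed sign to -0.034, -0.005 and -0.056. With the smooth muscle score, of which it is itself a part, Tagln stood at 0.435. With the fibroblast score Tagln (0.682), Mfap4 (0.612), Emcn (0.502), Angptl4 (0.499), Mfap5 (0.485), Smtn (0.438) and Gpm6a (-0.314) changed sign. Among the 20 largest rises and 20 largest falls without overlap, Hoxc6, Osr2, Ano4 and Ramp2 lost the call in 10, 9, 9 and 4 alternatives. The other 36 lost it in 0. Klf6, Lcn2 and Edn2 lost it in 14, 13 and 12, Edn1, Nfkb2, Nfkbib, Ccl7, Bmf and Arntl in 11, and Nfkbie, Hoxa7 and Cxcl12 in 10. No paired analysis was possible because no dish code spans both time points.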
